A study of Mus musculus with 6 samples.

Results

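The 10 genes described here encode the fibroblast growth factor (FGF) receptors Fgfr1, Fgfr2, Fgfr3 and Fgfr4, the FGF ligands Fgf2, Fgf6 and Fgf7, hepatocyte growth factor (Hgf) with its receptor Met, and the feedback inhibitor Spry2. They were picked by symbol, and all 10 were among the 20588 genes of the deposited table. Polyadenylated RNA was sequenced from satellite cells, the stem cells of skeletal muscle. The cells had been isolated by flow cytometry from the hind limbs of 2-month-old C57BL/6NJ mice. There were 3 libraries of Pnpla2 knockout cells (genotype Pnpla2PKO, here PKO 1 to PKO 3) and 3 of wild-type cells (WT 1 to WT 3). Cells of both genotypes had been expanded in culture over 7 days and then kept for 16 h in medium with 2% horse serum, a step that starts differentiation. The labels give neither the driver nor the extent of the deletion, nor whether the replicates stem from separate mice or cultures, so p-values here reflect only library-to-library spread, which may be technical.

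FGFs and HGF are secreted ligands of receptor tyrosine kinases that signal through the RAS and ERK pathway. FGF ligands need heparan sulfate to bind their receptors firmly, and HGF is secreted as an inactive precursor that serine proteases cleave. In muscle, HGF acting on Met is known to bring quiescent satellite cells into the cell cycle, FGFs keep myoblasts proliferating, and Sprouty proteins restrain both signals.

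Pnpla2, which encodes adipose triglyceride lipase, stood at 8.47, 16.0 and 15.5 CPM in PKO 1 to PKO 3, against 21.1, 38.5 and 33.7 CPM in WT 1 to WT 3 (CPM, counts scaled to a common library size with TMM factors). The groups did not overlap, with p = 0.1 in a two-sided exact permutation test, which cannot go lower with 3 against 3 libraries. Total counts ran from 15580176 to 18839151 per library. Myogenic markers were abundant in all libraries, with the summed CPM of the 10 marker genes between 8466 and 11335 in PKO and between 10999 and 11870.5 in WT. The summed CPM of 11 stromal markers was 776, 2150.2 and 1626 in PKO 1 to PKO 3, against 644, 438 and 466 in WT 1 to WT 3. Col3a1 and Gsn made up most of this sum in PKO 1 (458 and 262 CPM) and in WT. In WT 1 to WT 3 they stood at 371, 268 and 295 CPM (Col3a1) and 255, 150 and 139 CPM (Gsn). WT 1 stood apart from WT 2 and WT 3 in the cell cycle gene Mki67 (33.7 against 204 and 209 CPM), with the PKO libraries between 40.6 and 44.9 CPM. PKO 1 stood apart from PKO 2 and PKO 3 in the stromal receptor gene Pdgfra, at 5.12 CPM against 102 and 95.3 CPM, with the WT libraries between 2.03 and 3.72 CPM. Over all genes, PKO 1 and WT 1 were closer to each other (chi-square per degree of freedom 17.56) than either was to a library of its own genotype (64.88 and 79.67 for PKO 1, 57.43 and 61.49 for WT 1). PKO 1 was also closer to WT 2 (50.9) and WT 3 (51.78) than to PKO 2 or PKO 3. By contrast, WT 1 was far from PKO 2 (102.9) and PKO 3 (96.76). Thus 1 of the 3 PKO libraries was nearer to every WT library than to its own group. Fold changes and adjusted p-values without PKO 1, without WT 1 or without both are given beside the results as descriptions only. Leaving out the libraries nearest the other genotype widens differences by that choice.

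The ligand genes Hgf, Fgf2 and Fgf7 lay above all WT libraries in each PKO library, and the receptor gene Fgfr4 lay below them in each. Met was at 48.4% of the WT mean, with overlapping groups. Fgfr1, Fgfr2, Fgfr3, Fgf6 and Spry2 overlapped between the genotypes. With edgeR's quasi-likelihood test, 0 of the 10 genes passed an adjusted p of 0.05 in either direction, as did 0 of all 14025 genes tested (0.0% higher and 0.0% lower). At an unadjusted p under 0.05 in edgeR, 3 members were higher (10.2% of all tested genes were) and 2 were lower (6.35% of all). DESeq2 called 2 members higher (4.73% of genes with an adjusted p) and 2 lower (0.933%), and limma-voom called 0 (0.0% in each direction). With a replicate block, edgeR called 0 members, against 0.00713% of all genes higher and 0.0% lower. Groups that did not overlap were found for 3 members with PKO above WT (11.8% of all tested genes) and 1 with PKO below WT (9.7%). Without PKO 1 and WT 1, edgeR called 4 members higher (10.2% of genes tested then) and 2 lower (5.63%), counts that follow in part from which libraries were left out and support no call.

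**Figure D1:**
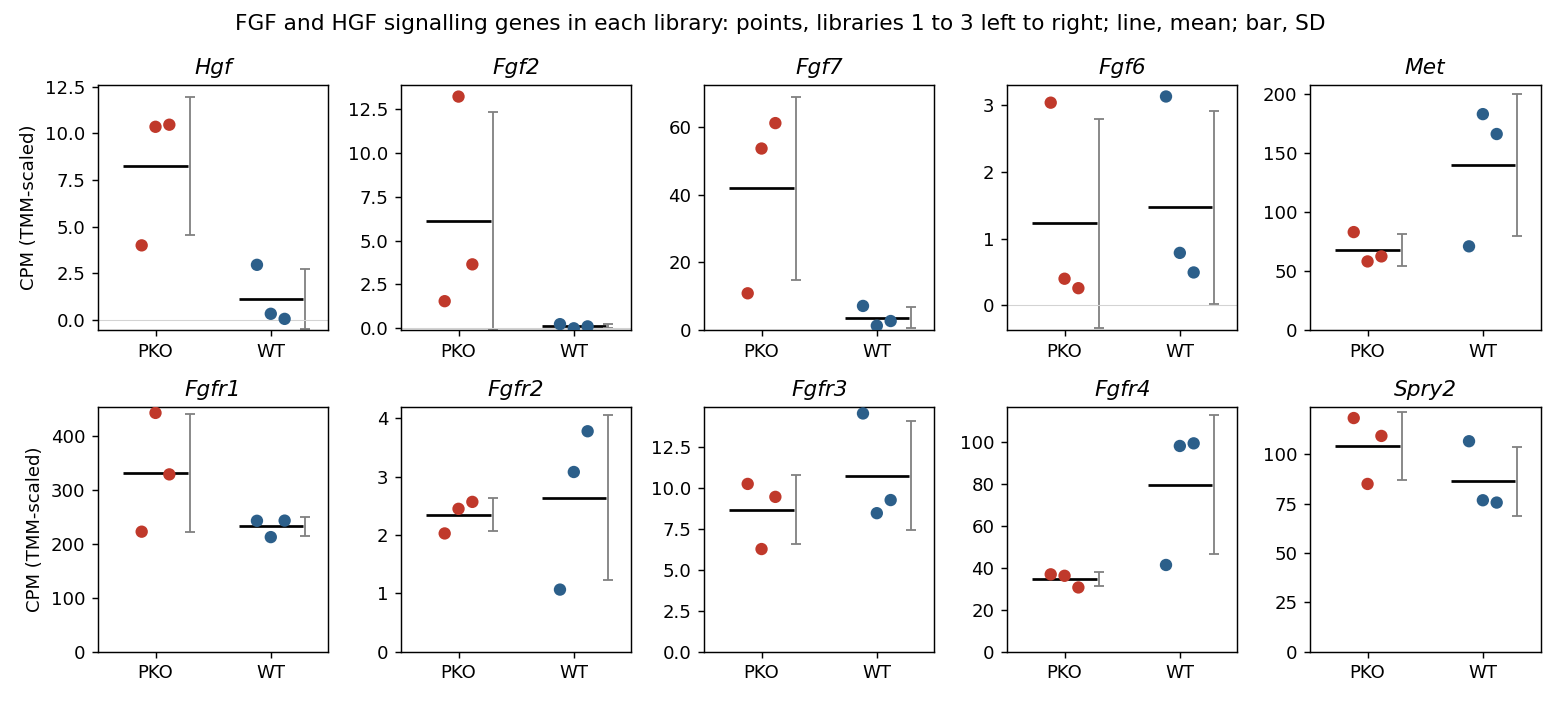
TMM-scaled CPM of the 10 genes in each library, one panel per gene with its own linear axis, PKO left and WT right. Points are libraries 1 to 3 from left to right, the line is the mean and the bar the SD; PKO points lie above all WT points for Hgf, Fgf2 and Fgf7 and below them for Fgfr4.

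All 10 genes passed the filter on low counts, which asks for at least 0.556 CPM in 3 libraries. Fgf2 passed through its 3 PKO libraries alone, and Hgf through 3 PKO libraries and 1 WT library. The presence of Fgf2 among the tested genes thus rested on its being high in PKO, and that of Hgf did in part. The 3 members counted above as higher in PKO, or as above all WT libraries, include both genes, so those counts are descriptions only. The edgeR p-values of both genes carry the same limit. DESeq2 was run without this filter, and Fgf2 was among the 2 members it called higher.

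Fgfr4 and Met were low, and Fgf7 and Hgf high, in overlapping sets of libraries. For these 4 genes the bases before an annotated start are shown. They are the 250 bases before the RefSeq start nearest the listed gene start (GRCm38.p6), read 5′ to 3′ on the gene's strand. Capitals mark E-boxes (CANNTG, the core bound by MYOD1, MYOG and other helix-loop-helix factors) and AP-1 sites (TGANTCA), both strands searched.
Fgfr4, chr13:55152568-55152817, plus strand: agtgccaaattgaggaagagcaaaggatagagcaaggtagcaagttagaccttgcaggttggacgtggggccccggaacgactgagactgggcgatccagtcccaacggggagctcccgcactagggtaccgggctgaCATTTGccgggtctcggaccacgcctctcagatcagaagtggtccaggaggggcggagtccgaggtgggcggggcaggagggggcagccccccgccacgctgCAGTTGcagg
Met, chr6:17463707-17463956, plus strand: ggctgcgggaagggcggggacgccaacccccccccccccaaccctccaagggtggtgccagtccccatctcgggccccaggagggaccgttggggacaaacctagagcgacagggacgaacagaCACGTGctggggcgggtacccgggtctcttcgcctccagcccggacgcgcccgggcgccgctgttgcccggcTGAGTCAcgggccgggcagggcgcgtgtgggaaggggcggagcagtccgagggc
Fgf7, chr2:126034408-126034657, plus strand: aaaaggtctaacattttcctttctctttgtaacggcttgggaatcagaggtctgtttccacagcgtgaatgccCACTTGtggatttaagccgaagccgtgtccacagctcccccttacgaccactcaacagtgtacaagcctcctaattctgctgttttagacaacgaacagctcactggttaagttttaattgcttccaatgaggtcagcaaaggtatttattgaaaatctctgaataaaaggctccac
Hgf, chr5:16553245-16553494, plus strand: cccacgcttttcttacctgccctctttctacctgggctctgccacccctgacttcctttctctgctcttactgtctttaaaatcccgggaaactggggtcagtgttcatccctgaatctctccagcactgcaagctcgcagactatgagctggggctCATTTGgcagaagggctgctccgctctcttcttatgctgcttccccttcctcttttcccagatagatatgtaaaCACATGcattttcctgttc
The RefSeq start used lies 178 bases inside the listed gene for Fgfr4 and 157 bases inside it for Met. All marked sites of these genes thus lie within the listed gene, not before it. For Hgf the RefSeq start lies 55 bases before the listed start, and for Fgf7 both are the same. The windows of Fgfr4 and Hgf held 2 E-boxes each, and those of Met and Fgf7 held 1 each. Of 32851 promoter windows of that length, 66.2% held an E-box. Met alone of the 4 held an AP-1 match, a motif present in 6.75% of all windows, and no capitals of different motifs overlapped. GC boxes (GGGCGG) numbered 2 in the Fgfr4 window and 3 in the Met window, with no match for Fgf7 or Hgf. Of all windows, 32.7% held at least 1. The window of Fgf2, which was also high in PKO, is not printed and held 1 GC box and 0 E-boxes. Its RefSeq start lies 36134 bases from the listed start. The M-CAT core (GGAATG, in 12.6% of all windows) and TATAAA (12.4%) were found in none of these windows. A match describes letters only and shows no binding.

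Hgf (ENSMUSG00000028864, chromosome 5, 16553550 to 16619439, plus strand, GRCm38) encodes the ligand of Met, a growth factor made mainly by mesenchymal cells. It had 75, 182 and 204 reads in PKO 1 to PKO 3, against 50, 5 and 1 reads in WT 1 to WT 3. In TMM-scaled units this was 4.0, 10.4 and 10.5 CPM in the PKO libraries, against 2.95, 0.327 and 0.0547 CPM in the WT libraries. WT 1 was thus close to PKO 1, while WT 2 and WT 3 were almost without Hgf reads. The mean was 8.27 ± 3.70 CPM in PKO and 1.11 ± 1.60 CPM in WT (SD, n = 3 each), a 7.44-fold ratio of means. Its log2 fold change was 2.89 ± 1.05 (SE), with an adjusted p of 0.261 in edgeR and 0.227 in DESeq2. Without WT 1 it was 5.45 with an edgeR adjusted p of 0.0172, and without WT 3 it was 2.31 (edgeR adjusted p = 0.584). Without PKO 1 and WT 1 it was 5.79.

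Fgf7 (ENSMUSG00000027208, chromosome 2, 126034658 to 126091185, plus strand) encodes keratinocyte growth factor, a mesenchymal ligand of the IIIb form of Fgfr2. Its level was 10.8, 53.6 and 61.1 CPM in PKO 1 to PKO 3, against 7.09, 1.24 and 2.63 CPM in WT 1 to WT 3. PKO 2 and PKO 3 were far above the other 4 libraries, and PKO 1 was only a little above WT 1. Means were 41.8 ± 27.1 CPM in PKO and 3.65 ± 3.05 CPM in WT, and the log2 fold change was 3.51 ± 0.82. The adjusted p was 0.184 in edgeR and 0.00742 in DESeq2. Without PKO 1 the edgeR value was 3.97 with adjusted p = 0.0216, without WT 1 it was 4.40 (0.0569), and without WT 2 it was 3.10 (0.523). Without both PKO 1 and WT 1 it was 4.86.

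Fgf2 (ENSMUSG00000037225, chromosome 3, 37312519 to 37405377, plus strand) encodes basic FGF, a mitogen of cultured myoblasts. It had 29, 232 and 71 reads in PKO 1 to PKO 3, against 4, 0 and 2 reads in WT 1 to WT 3. These reads correspond to 1.55, 13.2 and 3.64 CPM in PKO and to 0.236, 0 and 0.109 CPM in WT. Every PKO library had several times the reads of any WT library, and PKO 2 alone held most of the 332 PKO reads. The ratio of summed reads per total was 52.1, with an exact 95% interval of 23.7 to 143.0 that covers counting error only and rests on 6 WT reads. The edgeR log2 fold change was 5.61 ± 1.12 (adjusted p = 0.179), and DESeq2 gave an adjusted p of 3.71e-06. All edgeR p-values of Fgf2 are descriptions only, since it passed the low-count filter through its PKO libraries alone. The DESeq2 value also rests on 6 WT reads. Without PKO 2, its highest library, the log2 fold change was 4.39 (edgeR adjusted p = 0.403). Without PKO 1 it was 6.08 (edgeR adjusted p = 0.0189), without WT 1 it was 6.53 (0.0645), and without PKO 1 and WT 1 it was 6.98. Exons of Fgf2 share 640 bases with Nudt6 on the opposite strand, whose counts were 40, 180 and 182 in PKO and 37, 32 and 61 in WT. The strand setting of the authors' counting was not given in the sources used here, and reads of this overlap cannot be told apart.

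Fgf6 (ENSMUSG00000000183, chromosome 6, 127015542 to 127024718, plus strand), an FGF expressed almost only in skeletal muscle, was high in PKO 1 and WT 1 alone. It had 57, 7 and 5 reads in PKO 1 to PKO 3 and 53, 12 and 9 reads in WT 1 to WT 3. The library numbered 1 of each genotype held most of its reads (3.04 CPM in PKO 1 and 3.13 CPM in WT 1), and the other 4 libraries were between 0.257 and 0.786 CPM. The log2 fold change was -0.25 ± 1.05 (edgeR adjusted p = 0.921), and its sign changed when PKO 2, PKO 3 or WT 1 was left out.

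In the same libraries as the ligands, 8 of the 11 listed stromal markers could be tested, and all 8 had a positive log2 fold change (median 4.25). DESeq2 called 7 of these 8 higher, against 4.73% of all genes with an adjusted p. The collagen gene Col1a1 stood at 29.4, 859 and 249 CPM in PKO 1 to PKO 3, against 4.43, 12.1 and 17.1 CPM in WT 1 to WT 3. Dpt had no reads in PKO 1 and in the 3 WT libraries. Endothelial markers summed to between 7.14 and 12.8 CPM in PKO and between 2.95 and 4.39 CPM in WT, and leukocyte markers to between 6.00 and 7.68 CPM in PKO and between 4.71 and 5.97 CPM in WT. Adipocyte markers summed to at most 0.171 CPM, and erythroid markers to at most 0.626 CPM. Pericyte and smooth muscle markers were between 295 and 372 CPM in PKO and between 327 and 344 CPM in WT. Those sums hide genes of both directions, with 3 of 5 tested above 0 and 2 below (median log2 1.49). Rgs5 and Cspg4 had higher means in PKO, and Notch3 and Abcc9 lower ones. Schwann cell markers were between 6.50 and 11.1 CPM in PKO and between 3.78 and 12.8 CPM in WT. The part of stromal RNA in the Hgf, Fgf2 and Fgf7 values was not tested, and in these bulk libraries more cells of a type and more RNA per cell cannot be told apart.

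**Figure D2:**
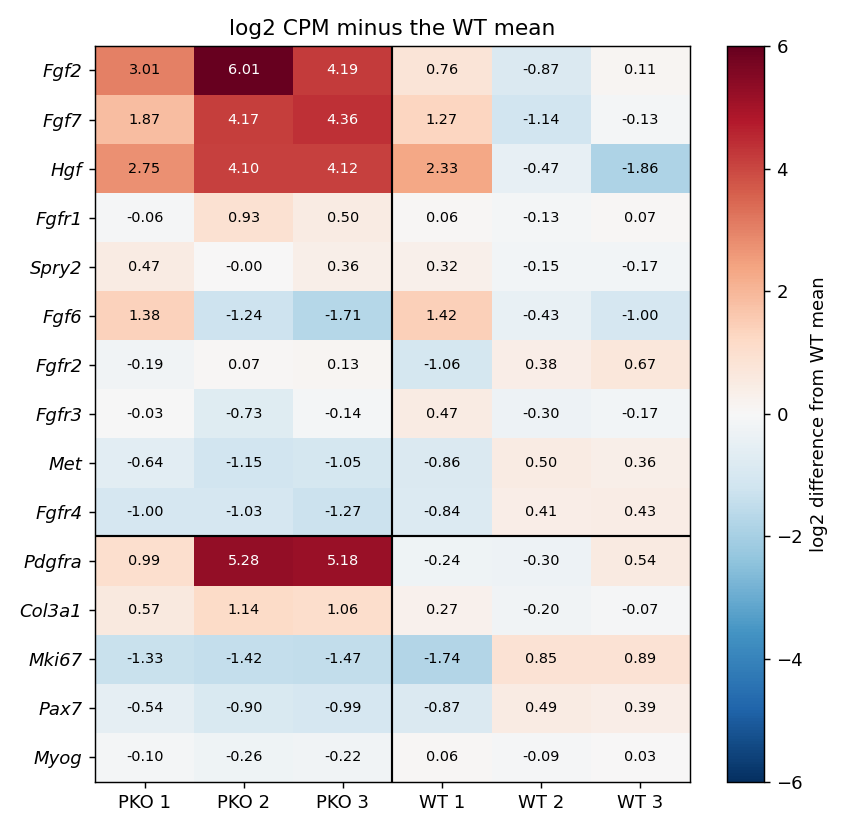
log2 CPM (prior count 2) of the 10 genes and of Pdgfra, Col3a1, Mki67, Pax7 and Myog in each library, minus the mean of the WT libraries, with the value in each cell; PKO libraries are left of the vertical line. Fgf2, Fgf7 and Hgf are highest in PKO 2 and PKO 3, where Pdgfra is 5.28 and 5.18 above the WT mean, and Met and Fgfr4 are low in WT 1 and in the PKO libraries, as Mki67 and Pax7 are.

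Among the receptors, Fgfr4 and Met were lower in PKO than in WT 2 and WT 3, with WT 1 near the PKO libraries for both. Fgfr4 (ENSMUSG00000005320, chromosome 13, 55152640 to 55168759, plus strand) encodes the FGF receptor typical of myogenic progenitors. Its level was 36.8, 36.1 and 30.6 CPM in PKO 1 to PKO 3, against 41.3, 98.0 and 99.2 CPM in WT 1 to WT 3. All PKO libraries were below all WT libraries, but the gap to WT 1 was small and that to the other two WT libraries wide. Means were 34.5 ± 3.42 CPM in PKO and 79.5 ± 33.1 CPM in WT, with a log2 fold change of -1.20 ± 0.32. Its adjusted p was 0.19 in edgeR and 0.00976 in DESeq2, and 0.00555 in edgeR without WT 1 (log2 -1.52). Without WT 3 the log2 fold change was -1.02 (edgeR adjusted p = 0.566), and without PKO 1 and WT 1 it was -1.56.

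Met (ENSMUSG00000009376, chromosome 6, 17463800 to 17573980, plus strand), the HGF receptor, stood at 82.8, 58.0 and 62.2 CPM in PKO 1 to PKO 3, against 70.8, 183 and 166 CPM in WT 1 to WT 3. PKO 1 lay above WT 1, so the groups overlapped, while WT 2 and WT 3 exceeded every other library. The mean level was 67.7 ± 13.3 CPM in PKO and 139.8 ± 60.4 CPM in WT. A log2 fold change of -1.05 ± 0.35 was found (edgeR adjusted p = 0.233, DESeq2 0.0455). Without WT 1 it was -1.37 (edgeR adjusted p = 0.0127), without WT 2 it was -0.81 (0.576), and without PKO 1 and WT 1 it was -1.54. WT 2 and WT 3 were also the highest libraries for the cell cycle markers, whose summed CPM was 179.7, 166 and 203 in PKO 1 to PKO 3, against 136, 665 and 699.6 in WT 1 to WT 3. The same held for Pax7, the satellite cell transcription factor, at 56.3, 43.6 and 41.2 CPM in PKO, against 44.5, 114 and 107 CPM in WT. Their part in the Fgfr4 and Met values was not tested. All 10 myogenic markers had a log2 fold change below 0 (median -0.24). Of these, 2 were lower at an unadjusted p under 0.05 in edgeR (6.35% of all tested genes). DESeq2 called 1 lower (0.933% of all genes with an adjusted p). That 1 was Itga7, an integrin gene of muscle cells, named after its values were seen, at 832, 746 and 681 CPM in PKO 1 to PKO 3, against 958, 1475 and 1347 CPM in WT 1 to WT 3 (log2 -0.74 ± 0.20, edgeR adjusted p = 0.19, DESeq2 0.0135). Myog, the differentiation factor, was at 2349 ± 138 CPM in PKO and 2682 ± 152 CPM in WT (log2 -0.19, edgeR adjusted p = 0.532, groups not overlapping), and Myod1 at 1487 ± 353 CPM in PKO and 1559 ± 128 CPM in WT (edgeR adjusted p = 0.885).

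Genes with patterns most like these were sought among 12895 other protein-coding genes, by the root mean square difference of log2 CPM centred on each gene's own mean over the 6 libraries. For Fgfr4 they were Atad5 (0.077), E2f8 (0.084) and Wdr76 (0.12). Met was nearest to Ltbp1 (0.062), Lrrc4 (0.084) and Pax7 (0.09). For Hgf the nearest were farther away, with Ctla2a at 0.25 and Cd53 at 0.32. Ltbp1, which encodes a latent TGF-beta binding protein, stood at 135, 102 and 112 CPM in PKO 1 to PKO 3, against 118, 296 and 267 CPM in WT 1 to WT 3. The order of the libraries was that of Met, which follows largely from the choice by likeness over the same libraries.

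Fgfr1 (ENSMUSG00000031565, chromosome 8, 25513654 to 25575714, plus strand), the FGF receptor gene with the most reads in all 6 libraries, stood at 223, 444 and 329.6 CPM in PKO 1 to PKO 3, against 243, 213 and 244 CPM in WT 1 to WT 3. PKO 2 and PKO 3 lay above all WT libraries, and PKO 1 lay within their range. The log2 fold change was 0.51 ± 0.24 (edgeR adjusted p = 0.342, DESeq2 0.301). Without PKO 2 it was 0.25 (edgeR adjusted p = 0.578), and without PKO 1 and WT 1 it was 0.76. Stromal markers were also highest in PKO 2 and PKO 3, and their part in the Fgfr1 values was not tested.

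Fgfr2 and Fgfr3 were low in all libraries. Fgfr3 (ENSMUSG00000054252, chromosome 5, 33721724 to 33737068, plus strand) stood at 10.2, 6.26 and 9.44 CPM in PKO 1 to PKO 3, against 14.5, 8.45 and 9.25 CPM in WT 1 to WT 3. Those ranges overlapped, with WT 1 the highest library (log2 -0.31 ± 0.29, edgeR adjusted p = 0.608). Fgfr2 (ENSMUSG00000030849, chromosome 7, 130162451 to 133123350, minus strand) was at 2.03, 2.45 and 2.57 CPM in PKO, against 1.06, 3.08 and 3.78 CPM in WT. The PKO libraries lay inside the WT range, and the log2 fold change was -0.17 ± 0.47 (edgeR adjusted p = 0.875). The span listed for Fgfr2 covers 2960900 bases and overlaps 69 other annotated genes, 1 of which, Ctbp2, shares 314 exon bases with it. Reads per gene do not separate the IIIb and IIIc splice forms of Fgfr1 to Fgfr3, which differ in the ligands they bind.

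Levels of different genes were compared in FPKM, fragments scaled to gene length and library size. Of the summed FPKM of Fgfr1 to Fgfr4, Fgfr1 made up 76.0%, 87.2% and 84.5% in PKO 1 to PKO 3, against 75.0%, 56.8% and 59.5% in WT 1 to WT 3. The Fgfr4 share was 19.0%, 10.8% and 11.9% in the PKO libraries, against 19.3%, 39.6% and 36.8% in the WT libraries. PKO 1 and WT 1 thus had nearly the same receptor make-up, PKO 2 and PKO 3 leaned furthest to Fgfr1, and WT 2 and WT 3 furthest to Fgfr4. The mean Fgfr4 share was 13.9 ± 4.49% in PKO and 31.9 ± 11.0% in WT (SD, n = 3 each). Summed FPKM of the 4 receptors was 58.4, 103 and 80.0 in PKO, against 62.9, 72.9 and 79.6 in WT, and the ranges overlapped. The ratio of Fgfr1 to Fgfr4 in FPKM was 3.99, 8.10 and 7.11 in PKO 1 to PKO 3, against 3.89, 1.43 and 1.62 in WT 1 to WT 3. Which receptor led in WT 2 and WT 3 depended on the gene length used. Per GENCODE M21 exon length, Fgfr1 made up 65.3%, 79.9% and 76.6% in PKO 1 to PKO 3, against 64.1%, 42.5% and 45.4% in WT 1 to WT 3. Fgfr4 then made up 30.0%, 18.1% and 19.8% in PKO, against 30.3%, 54.6% and 51.5% in WT, and so exceeded Fgfr1 in WT 2 and WT 3.

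**Figure D3:**
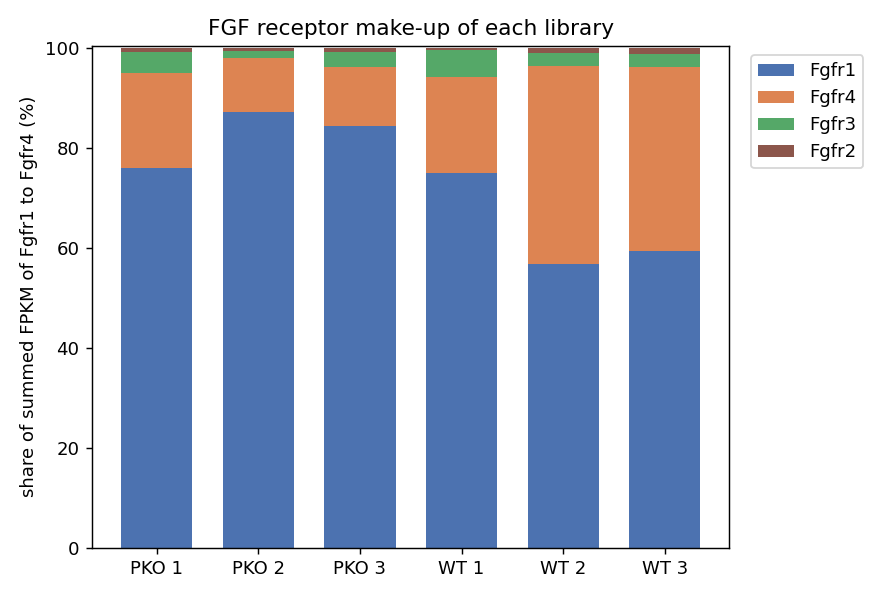
Share of each of Fgfr1 to Fgfr4 in their summed FPKM, in percent, as stacked bars for the 3 PKO libraries (left) and the 3 WT libraries (right). Fgfr4 takes 10.8% to 19.0% in PKO and 19.3% to 39.6% in WT, and PKO 1 and WT 1 look alike.

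In FPKM the order of mean levels in PKO was Fgfr1 (67.3), Spry2 (50.9), Fgf7 (16.1), Fgfr4 (10.6), Met (10.1), Fgf2 (5.05), Hgf (3.07), Fgfr3 (2.07), Fgf6 (1.01) and Fgfr2 (0.54). In WT it was Fgfr1 (45.3), Spry2 (40.5), Fgfr4 (23.4), Met (20.1), Fgfr3 (2.48), Fgf7 (1.34), Fgf6 (1.17), Fgfr2 (0.584), Hgf (0.395) and Fgf2 (0.0909). By these means Fgf7 stood ahead of Fgfr4 and Met in PKO but behind both and Fgfr3 in WT. Fgf2, last in WT, stood ahead of Hgf and Fgfr3 in PKO. Single PKO libraries differed from this order. In PKO 1, Fgf7 (4.06 FPKM) was below Fgfr4 (11.1 FPKM) and Met (12.2 FPKM), and Fgf2 (1.25 FPKM) below Hgf (1.46 FPKM) and Fgfr3 (2.42 FPKM). In PKO 3, Fgf2 (3.04 FPKM) was also below Hgf (3.93 FPKM). The ranges of neighbours over the libraries mostly overlapped, as for Fgfr1 (44.4 to 89.8 FPKM) and Spry2 (41.6 to 57.0 FPKM) in PKO. In PKO the 1 gap was between Spry2 and Fgf7 (4.06 to 23.7 FPKM). In WT there were gaps between Spry2 (35.5 to 50.0 FPKM) and Fgfr4 (12.1 to 29.2 FPKM), and between Met (10.2 to 26.3 FPKM) and Fgfr3 (1.95 to 3.35 FPKM). The deposited gene lengths bear on this order. With reads divided by the exon length of GENCODE M21, Spry2 (50.9 in PKO) came before Fgfr1 (34.3), and Fgf2 came after Fgfr3 and Hgf at 0.923 in PKO, its listed length being 1240 bases against 6782 bases of annotated exon.

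Spry2 (ENSMUSG00000022114, chromosome 14, 105891949 to 105896819, minus strand), an inhibitor of receptor tyrosine kinase signalling that ERK activity induces, stood at 118, 85.0 and 109 CPM in PKO 1 to PKO 3, against 107, 76.7 and 75.6 CPM in WT 1 to WT 3. PKO 2 lay below WT 1, so the groups overlapped. The log2 fold change was 0.27 ± 0.19 (edgeR adjusted p = 0.488, DESeq2 0.603).

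**Figure D4:**
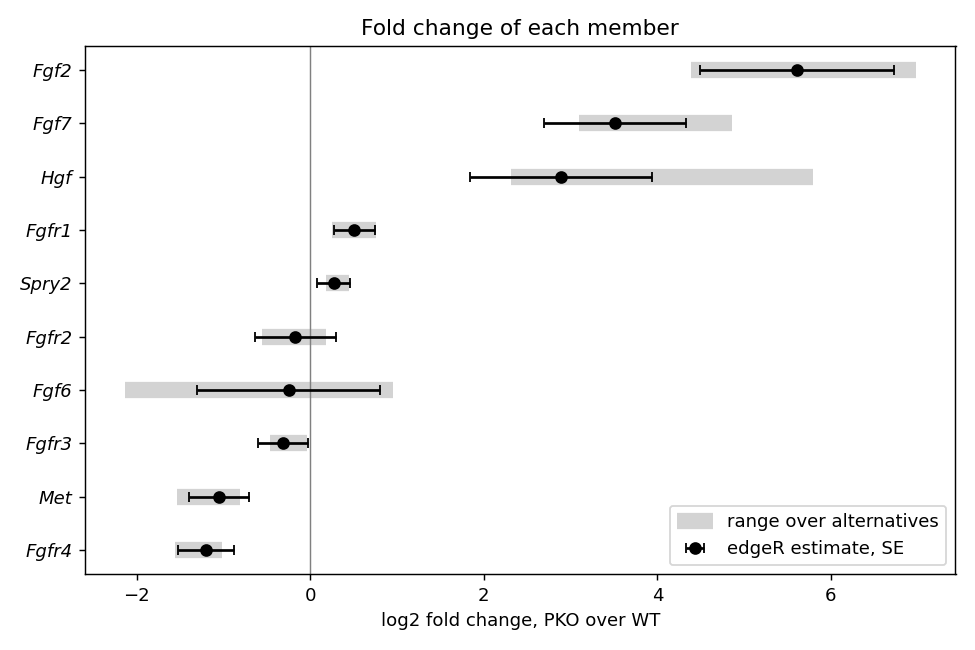
log2 fold change of PKO over WT for the 10 genes: points are edgeR estimates over 6 libraries, whiskers their SE, and grey bars the range over the alternative settings. Fgf2, Fgf7 and Hgf lie above 0 and Met and Fgfr4 below 0 in every setting, while the bars of Fgf6 and Fgfr2 cross 0.

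In the authors' deposited table, the log2 fold change was 2.54 for Fgf2 (adjusted p = 4.82e-06), 1.52 for Fgf7 (0.0161), -1.06 for Fgfr4 (0.00974) and -0.91 for Met (0.0444). The same deposited table gave 0.78 for Hgf with an adjusted p of 0.302. These fold changes are smaller in size than those fitted here, and the cause was not tested. The series text names DESeq2 or edgeR on counts as the authors' test. DESeq2 here gave adjusted p-values of 3.71e-06 for Fgf2, 0.00742 for Fgf7, 0.00976 for Fgfr4, 0.0455 for Met and 0.227 for Hgf. The deposited values come from the same libraries and are not independent evidence.

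The wider pathway was described with lists of other genes, chosen like the members with earlier results of these data known. Over all 14025 tested genes the median log2 fold change was -0.02, with 6769 above 0. With adjustment over all genes, edgeR called 0 genes of any of these lists at an adjusted p of 0.05, and the DESeq2 calls and the counts at an unadjusted p under 0.05 in edgeR are given for each list. They are to be read beside the shares over all genes. DESeq2 called 4.73% of genes with an adjusted p higher and 0.933% lower. At an unadjusted p under 0.05 in edgeR, 10.2% of all tested genes were higher and 6.35% lower.

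Of the other FGF ligand genes, 14 of 19 were in the table and 6 were tested (4 above 0, median 0.16). None reached an unadjusted p under 0.05 in edgeR. Fgf1, a ligand of all FGF receptors, stood at 2.50, 3.81 and 2.05 CPM in PKO 1 to PKO 3, against 2.48, 0.72 and 0.657 CPM in WT 1 to WT 3 (log2 1.11 ± 0.58, edgeR adjusted p = 0.368). Fgf11, an intracellular FGF homologue, was at 90.2, 52.9 and 53.1 CPM in PKO and 99.1, 61.1 and 62.6 CPM in WT, with libraries numbered 1 highest in both genotypes. Fgf10, a mesenchymal ligand of the same receptor form as Fgf7, was singled out after its values were seen. It failed the low-count filter of edgeR and was the 1 DESeq2 call of the list (adjusted p = 0.0129), with 2, 211 and 344 reads in PKO 1 to PKO 3, against 1, 0 and 4 reads in WT 1 to WT 3. PKO 1 was thus at the WT level for Fgf10, as it nearly was for Pdgfra.

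Genes for HGF processing, and for the related ligand MSP and its receptor, were in the table for 10 of 11 entries, and all 6 tested were above 0 (median 0.33). Plat, which encodes tissue plasminogen activator, stood at 11.1, 73.0 and 31.5 CPM in PKO 1 to PKO 3, against 8.98, 2.29 and 4.54 CPM in WT 1 to WT 3. No WT library reached a PKO library (log2 2.86 ± 0.76), and Plat was the 1 gene of the list with an unadjusted p under 0.05 in edgeR (adjusted p = 0.19) and the 1 DESeq2 call (0.0238). Plau, the urokinase gene, was at 113, 208 and 149 CPM in PKO and 108, 117 and 110.4 CPM in WT (edgeR adjusted p = 0.318). The membrane inhibitor gene Spint2 was at 1.49 ± 0.41 CPM in PKO and 0.941 ± 0.174 CPM in WT, and St14, the matriptase gene, at 1.66 ± 0.553 CPM in PKO and 1.54 ± 0.266 CPM in WT.

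Co-receptor and heparan sulfate genes, 19 of 22 tested, were above 0 in 13 cases (median 0.18). At an unadjusted p under 0.05 in edgeR, 4 were higher (10.2% of all tested genes) and 0 lower (6.35%). Ext1, a subunit of the heparan sulfate polymerase, stood at 123, 146 and 128 CPM in PKO 1 to PKO 3, against 89.7, 64.6 and 68.2 CPM in WT 1 to WT 3. The PKO libraries were close together and all above WT (log2 0.83 ± 0.16, edgeR adjusted p = 0.179), and Ext1 was the 1 DESeq2 call of the list (0.00147). Its partner Ext2 was at 109 ± 11.2 CPM in PKO and 82.9 ± 6.26 CPM in WT (edgeR adjusted p = 0.216). The core proteins Sdc2, a syndecan, and Gpc4, a glypican, had log2 fold changes of 0.25 ± 0.10 and 0.63 ± 0.26, each with PKO above WT in every library and an edgeR adjusted p of 0.276 and 0.293.

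Receptor adaptor genes differed little, with 4 of 12 above 0, a median of -0.10, and 0 DESeq2 calls. Shc1, which links receptors to GRB2, was higher in each PKO library (193 ± 25.6 CPM in PKO and 134 ± 17.7 CPM in WT, edgeR adjusted p = 0.192). Crkl was lower in each (82.4 ± 11.3 CPM in PKO and 104 ± 4.92 CPM in WT, edgeR adjusted p = 0.284). These were the 1 higher and the 1 lower gene at an unadjusted p under 0.05 in edgeR.

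The other Sprouty, Spred and SEF inhibitor genes, 6 tested of 7, had 2 above 0 and a median of -0.07. Those 2 were Spred1 at 75.9, 139 and 117 CPM in PKO 1 to PKO 3, against 75.8, 67.9 and 67.3 CPM in WT 1 to WT 3, and Spred3. Spred3 averaged 39.7 ± 8.30 CPM in PKO and 24.8 ± 2.01 CPM in WT, with an edgeR adjusted p of 0.19 and a DESeq2 adjusted p of 0.0396. Both had PKO above WT in all libraries and an unadjusted p under 0.05 in edgeR, although PKO 1 and WT 1 were almost equal for Spred1. Spry1, the Sprouty gene of quiescent satellite cells, was at 51.2, 82.8 and 49.9 CPM in PKO and 75.0, 82.6 and 89.9 CPM in WT (edgeR adjusted p = 0.353).

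ERK-responsive genes did not share 1 direction: 11 of 16 were above 0, with a median of 0.23. DESeq2 called 4 higher (4.73% of all genes with an adjusted p) and 0 lower (0.933%). Those 4 were also the ones with an unadjusted p under 0.05 in edgeR (10.2% of all tested genes were higher). Ier3, an early response gene, stood at 14.9, 81.7 and 76.8 CPM in PKO 1 to PKO 3, against 7.74, 4.98 and 7.66 CPM in WT 1 to WT 3. It was highest in PKO 2 and PKO 3 (log2 3.09 ± 0.62, edgeR adjusted p = 0.179, DESeq2 2.01e-06). Phlda1 was at 57.9 ± 6.53 CPM in PKO and 40.1 ± 1.44 CPM in WT (edgeR adjusted p = 0.184), and Junb at 111 ± 9.24 CPM in PKO and 80.5 ± 3.52 CPM in WT (0.187 in edgeR). Egr2, the fourth, was at 3.84, 17.1 and 5.85 CPM in PKO and 3.90, 1.90 and 1.48 CPM in WT, with PKO 1 just below WT 1. The phosphatase gene Dusp6 and the ETS factor gene Etv4, both well-known readouts of FGF signalling and chosen for that reason after the values were seen, had log2 fold changes of 0.22 ± 0.23 and -0.03 ± 0.36. Their edgeR adjusted p-values were 0.644 and 0.972. The other Dusp and Etv genes of the list had log2 fold changes of 0.36 ± 0.41 (Dusp5), 0.33 ± 0.16 (Etv5), 0.13 ± 0.22 (Dusp4) and 0.07 ± 0.13 (Etv1). None of these reached an unadjusted p under 0.05 in edgeR.

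**Figure D5:**
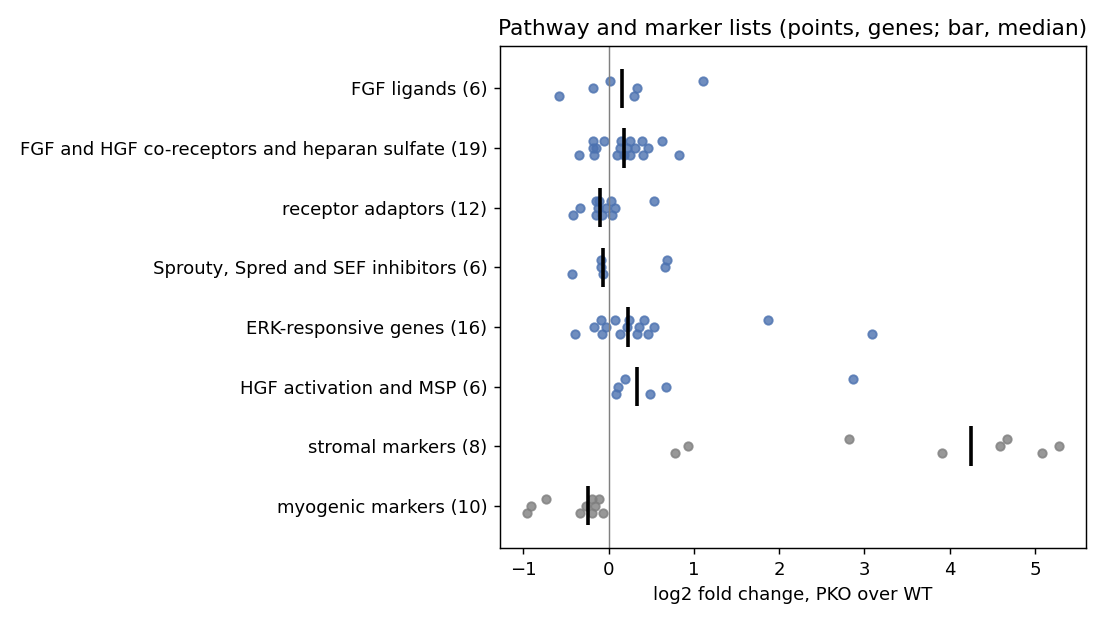
log2 fold change of PKO over WT for each tested gene (point) of 6 pathway lists in blue and 2 marker lists in grey, with the list median as a bar and the number of tested genes in brackets. Most pathway genes lie within 1 of 0, with Ier3 at 3.09, Plat at 2.86, Egr2 at 1.87 and Fgf1 at 1.11 beyond, while the stromal median is 4.25.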

How the data were processed

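Polyadenylated RNA of 3 PKO and 3 WT libraries was analysed from 1 deposited table, its columns matched to samples by title. Per the labels' series text and the submitters' processing notes, TopHat2 aligned the paired reads to GRCm38 (mm10), and HTSeq 0.6.1 gave the reads of each gene; the annotation and strand setting were not given in the sources used here. The authors deposited whole-number read counts, which all tests used. The authors' deposited FPKM values, scaled per gene length and library, served only to compare genes with each other. The deposited normalized signal is the count divided by 1 factor per library and was not used. The authors' deposited log2 fold changes and p-values are printed only as theirs. For their test the series text names DESeq2 or edgeR on counts, at an adjusted p under 0.05.

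The test was edgeR 4.0.16 (R 4.3.3) with filterByExpr, TMM factors and a robust quasi-likelihood fit on genotype, with Benjamini-Hochberg adjustment over 14025 genes and a threshold of 0.05. Standard errors were derived from the F statistic. DESeq2 1.42.0 and limma-voom (limma 3.58.1) were alternatives, as were other scalings, filters, a replicate block and left-out libraries. The scripts were tested on simulated data. Named were the 10 members, Pnpla2, Mki67, Pax7, Myod1, Myog, up to 4 genes per list with a mean of at least 1 CPM and the smallest edgeR p, and the 3 nearest patterns to Fgfr4, Met and Hgf; the text prints part of these, 1 item is not reported here, and other markers named were chosen after their values were seen. Members and lists were chosen with earlier results of these data known. Of 161 list entries, 142 were in the table. Promoters came from RefSeq (9 of 10 members matched). No 2 libraries agreed within counting noise (smallest chi-square per degree of freedom 6.77, WT 2 with WT 3, followed by 17.56 for PKO 1 with WT 1).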

Additional observations from a re-analysis of the deposited data

How the results depend on the processing

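Fgf2, Fgf7, Hgf, Fgfr4 and Met kept their direction in all 15 alternatives run for each, whereas 0 members passed edgeR with all 6 libraries under its other scalings and filters. The groups of Fgf2, Fgf7, Hgf and Fgfr4 did not overlap, so leaving out libraries could hardly turn their sign. All alternatives used the same libraries, and the kept direction is no separate support. Members called higher numbered 2 with DESeq2 and 4 without PKO 1 and WT 1, and between 0 and 2 when 1 library was left out (2 without PKO 1, 1 without WT 1). Members called lower numbered 2 with DESeq2 and 2 without PKO 1 and WT 1, and between 0 and 2 in turn (2 without WT 1). Over all genes DESeq2 called 917, the fit without PKO 1 and WT 1 called 2266, and leaving out 1 library gave 0 to 1000 (737 without PKO 1, 1000 without WT 1). Where PKO 1 and WT 1 are left out, 2 libraries a group remain, and since these were the libraries nearest the other genotype the higher counts follow in part from that choice. The same holds for the counts without PKO 1 alone or without WT 1 alone.

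The replicate block called 1 gene of all and 0 members. The numbers were not taken as pairs: deviations of same-numbered libraries correlated at 0.10, -0.03 and 0.13, and not every library correlated best with its own number. Signs turned for Fgfr2 with limma-voom (log2 0.01) and without 1 library (range -0.55 to 0.18), and for Fgf6 without 1 library (-2.14 to 0.95). The difference in Fgfr4 share of receptor FPKM, PKO minus WT, was -18.0 percentage points and ran from -24.3 to -14.1, with -22.8 per GENCODE M21 exon length, an alternative added after seeing the data. The small differences in Fgfr2 and Fgfr3 share turned sign, for Fgfr2 to 0.00979 per GENCODE M21 exon length and to 0.0404 without WT 3 (range -0.298 to 0.0404), and for Fgfr3 to 0.147 without WT 1 (range -1.39 to 0.147). The cause was not tested. Library-size scaling put the median of all genes at 0.04 on the log2 scale, against -0.02. Depth limits Fgf2 and Hgf in WT and Fgf6 in most libraries, where few reads were counted.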

Other observations

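Hgf was not alone in separating WT 1 from WT 2 and WT 3. Rgs5, a pericyte marker, reached 106, 39.5 and 151 CPM in PKO 1 to PKO 3, against 41.9, 4.13 and 5.42 CPM in WT 1 to WT 3, so that WT 1 lay above PKO 2 and well above the other two WT libraries. Cspg4, another pericyte marker, had 23.8, 53.7 and 22.6 CPM in PKO, against 16.4, 7.53 and 11.8 CPM in WT. Other markers of that list went the other way: Notch3 had 165, 119.8 and 84.2 CPM in PKO, against 152, 262 and 257 CPM in WT (log2 -0.86), and Abcc9 had a log2 fold change of -0.27. Of the 5 tested, 3 were above 0 and 2 below.

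The mesenchymal ligand genes did not appear together in PKO 1. That library had 203 reads of Fgf7, 75 of Hgf and 29 of Fgf2 but 2 of Fgf10, whereas PKO 2 had 942, 182, 232 and 211 reads of the same 4 genes and PKO 3 had 1191, 204, 71 and 344. Fgf2 was highest in PKO 2, and Fgf10 and Fgf7 in PKO 3. Of the stromal markers, Col1a1 was likewise highest in PKO 2 (859 against 249 CPM in PKO 3), and Ly6a in PKO 3 (71.2 against 14.7 CPM in PKO 2). No test was made of these library differences.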
